A study of Mus musculus with 6 samples.

Results

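The nuclear pore and nuclear transport genes were the 51 protein-coding genes, of 17524 genes in the table, whose symbols name a nucleoporin (Nup followed by a digit, or Tpr), a Ran-binding protein (Ranbp), an importin (Ipo, Kpna, Kpnb or Tnpo) or an exportin (Xpo). They were measured by bulk messenger RNA sequencing of the trigeminal ganglion, the sensory ganglion of the face and meninges, in 6 libraries. The NTG group held 3 libraries from WT mice given NTG, which usually means nitroglycerin, a donor of nitric oxide used to model migraine. The vehicle group held 3 libraries from WT mice given vehicle. The labels give neither the dose, the time after treatment, the age nor the sex, and do not say whether each library came from its own animal. The family was selected on the NTG against vehicle contrast with results of these data known, so its fold changes and calls are given as a description, with no p-value.

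Nuclear pores are protein channels through the nuclear envelope, built from scaffold rings, a central channel lined by nucleoporins rich in phenylalanine-glycine (FG) repeats, filaments on the cytoplasmic side and a basket on the nuclear side. Importins and exportins, together called karyopherins, carry proteins and RNAs through the channel, and the small GTPase Ran, loaded with GTP in the nucleus, sets the direction of travel. In sensory neurons importins also act far from the nucleus: they bind signalling proteins in the axon and are carried back to the cell body after nerve injury. In mice, the importin alpha gene Kpna4 has been tied to nuclear entry of pain-related transcription factors in sensory neurons.

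All values below are normalised reads, the authors' gene counts divided by 1 size factor per library. Library totals were 19293926, 19248592 and 23774244 recovered reads in NTG and 18813027, 20191300 and 18825239 in vehicle. Each member was tested in a single fit over 17475 genes (limma-trend on log2(value + 1)), and rose, fell or called means a Benjamini-Hochberg adjusted p under 0.05 in it. Sensory neuron markers summed to 21418 to 22138 CPM (recovered reads scaled to library size) in NTG and 21971 to 23122 CPM in vehicle, with 12 of 12 detected in every library. Of these 12 markers 3 rose and 5 fell (median log2 fold change -0.08), where 12.3% and 13.5% of all genes tested did. Skeletal muscle markers fell in 6 of 10 cases, with a median log2 fold change of -1.43. After removal of the GC and length trend described below, 4 fell, with a median of -1.26. Their sums were 64.2 to 70.6 CPM in NTG and 69.98 to 76.8 CPM in vehicle. Levels of these markers ran from 2.83 to 1292 normalised reads per kilobase, so the sums need not show the typical marker. The 5 detected markers of dividing cells, where importin alpha genes are often high, summed to 7.31 to 13.5 CPM in NTG and 5.31 to 10.9 CPM in vehicle. Of the other ganglion cells, summed markers overlapped between groups for Schwann cells (12789 to 14222 CPM in NTG against 13470.0 to 14893 in vehicle) and endothelial cells (141 to 150.2 against 126 to 155). They did not overlap, with NTG lower, for 3 further lists: 4606 to 4786 against 5046 to 5264 for satellite glia, where 4 of 6 markers had a positive log2 fold change (median 0.01), 1030.2 to 1205 against 1233 to 1375 for fibroblasts and 84.8 to 95.7 against 104 to 115 for macrophages. Of 6 markers each, 1 rose and 3 fell for Schwann cells, and 1 rose and 1 fell for endothelial cells. For satellite glia 1 rose and 2 fell, and for fibroblasts and macrophages 0 rose and 2 fell each. The part of these cell types in the results was not tested.

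Of the 51 members, 20 rose and 3 fell in NTG, and 28 were not called. Over all genes tested 12.3% rose and 13.5% fell. The median log2 fold change of the members was 0.16, against 0.00 over all genes tested, and 38 members had a positive value. In 25 members all NTG libraries lay above all vehicle libraries (19.7% of all genes), and in 5 they lay below (20.0%). Because the contrast was used to propose the family, nothing is read from these shares. The changes were small: 19 of the 20 rises were under 1.5-fold, and only Ranbp2 and Ipo7 were called higher against a minimum fold of 1.2, which 0.441% of all genes were. In bulk tissue, fewer cells of a type and less RNA per cell cannot be told apart. Without NTG replicate 2, 12 members rose and 1 fell; 1 fell also without NTG replicate 1 or vehicle replicate 2, and 5 fell without vehicle replicate 1.

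**Figure D1:**
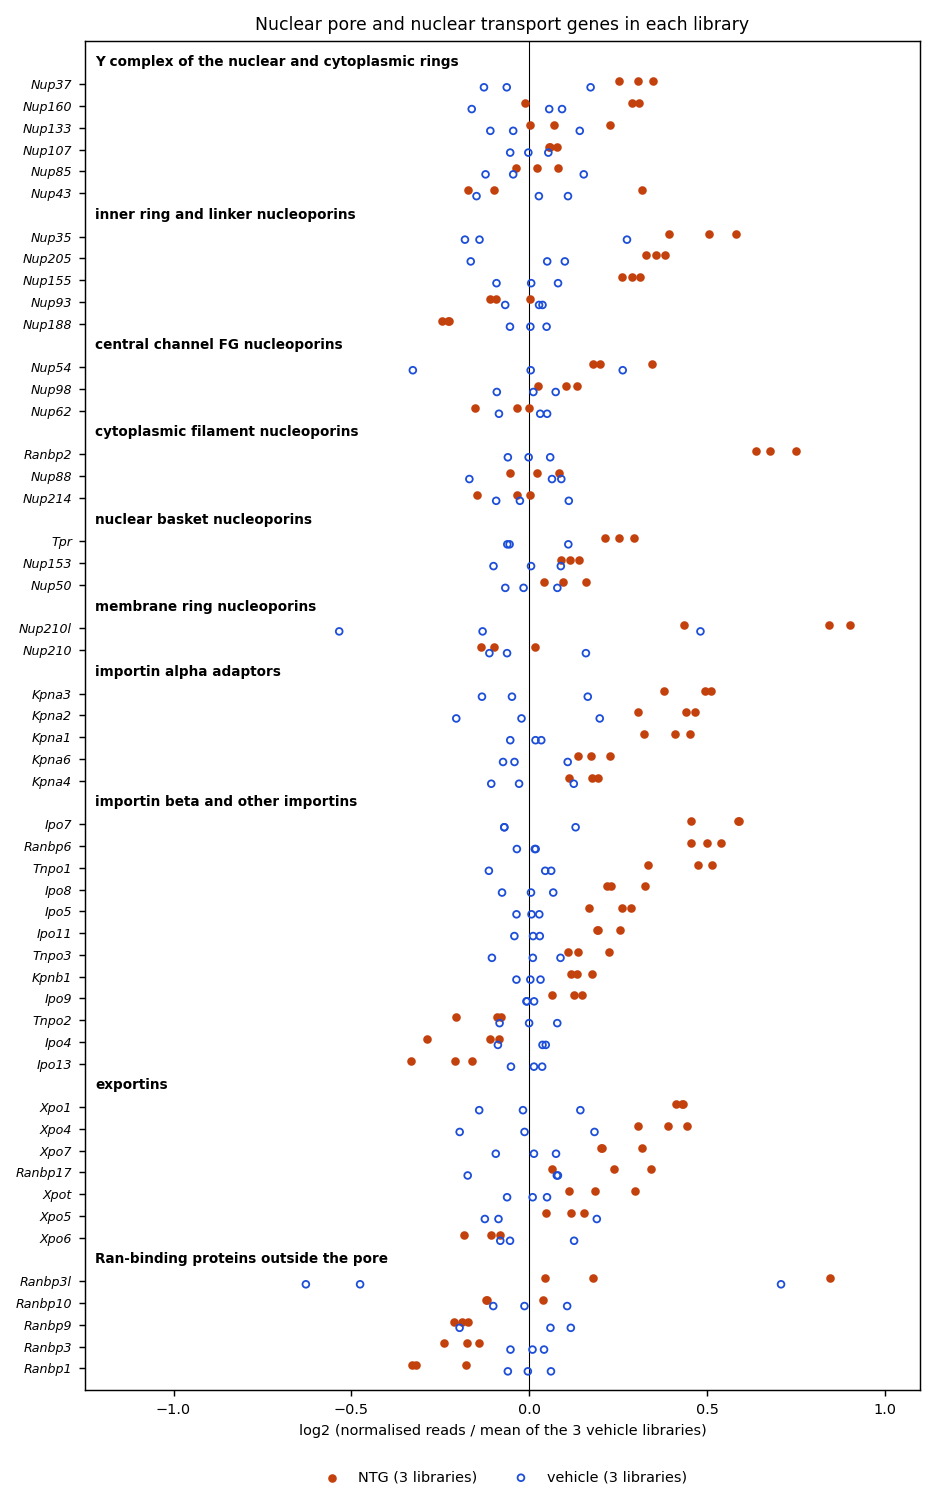
Each row is 1 of the 51 members, grouped by role, and each point is 1 library, placed by its log2 ratio to the mean of the 3 vehicle libraries (filled, NTG; open, vehicle). The 3 NTG points of Ranbp2, Ipo7 and Ranbp6 stand to the right of all vehicle points, those of Ranbp1, Ipo13, Ranbp3 and Nup188 stand to the left, and in the Y complex NTG and vehicle points overlap for 4 of 6 members.

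The direction of change went with the base composition of the transcript. Transcript GC content (longest GENCODE transcript) ranged from 37.0% to 58.0% among the members, with a median of 44.3% in the 20 that rose, 57.5% in the 3 that fell and 48.9% in the 28 not called. Of 14 members under 45% GC, 11 rose (78.6%) and 0 fell. Of 24 members from 45% to under 50%, 9 rose (37.5%) and 1 fell (4.17%). Of 13 members at 50% or more, 0 rose and 2 fell (15.4%). The same ordering held across the transcriptome. Among all protein-coding genes 39.9% rose under 45%, 16.5% from 45% to under 50% and 1.52% at 50% or more. The shares that fell in these ranges were 1.35%, 3.21% and 24.9%. As a description of genes that share the same 6 libraries, the fold changes ranked against GC content with a Spearman's rho of -0.81 over the 51 members and -0.64 over 14931 protein-coding genes. The median length of the 3′ untranslated region was 2128 nt in the members that rose, 306 nt in those that fell and 857 nt in those not called. Their part in the result was not tested.

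Libraries carried this slope as a whole. The log2 deviation of a library per 10 percentage points of GC content was -0.21, -0.16 and -0.08 in NTG replicates 1 to 3, and 0.11, 0.19 and 0.16 in vehicle replicates 1 to 3. The members' median deviation was 0.08, 0.11 and 0.05 in NTG and -0.03, -0.11 and -0.07 in vehicle. When each library's smooth trend over GC content and transcript length was removed, 3 members rose and 1 fell, against 4.13% and 5.22% of the 16271 genes in that fit. Without vehicle replicate 1 it was 6 and 2, and without vehicle replicate 3 it was 7 and 1. The median log2 fold change of the members was then 0.06, against 0.02 over all genes in it. All 20 members that had risen kept a positive value, each smaller than before. The members' values after the removal still ranked against GC content, with a Spearman's rho of -0.38. The reason for this remaining relation was not tested. Ranbp2, Ipo7 and Ranbp6 were the 3 that rose in both fits, and Ranbp1 was the 1 that fell in both. Their GC contents were 40.6%, 40.3% and 41.1%, and 48.3% for Ranbp1.

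**Figure D2:**
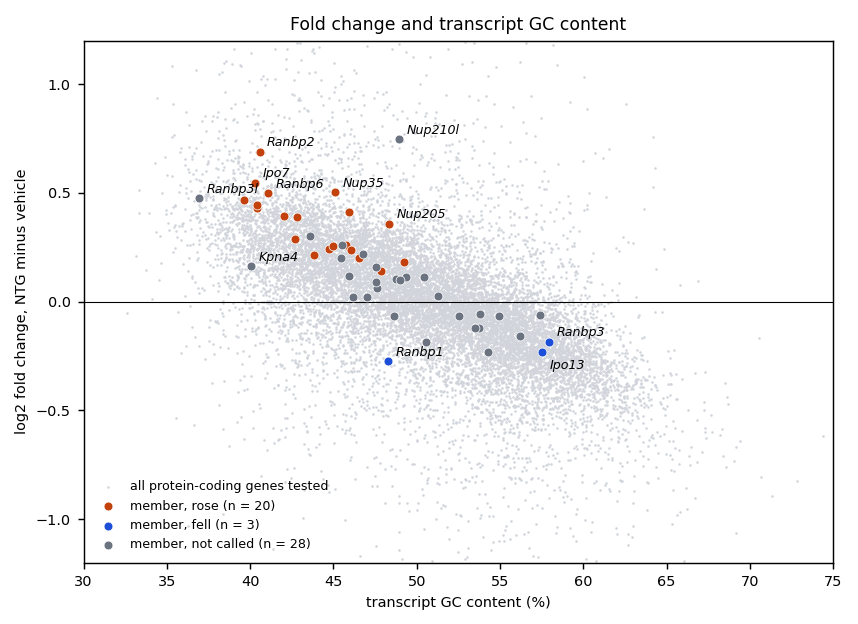
Log2 fold change (NTG minus vehicle) against transcript GC content in percent, for all protein-coding genes tested (grey) and the 51 members, coloured by call. The members run down the same slope as the grey cloud, with Ranbp2 above most of the cloud at its GC content and Ranbp1 below it. The vertical axis leaves out grey genes with larger changes.

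**Figure D3:**
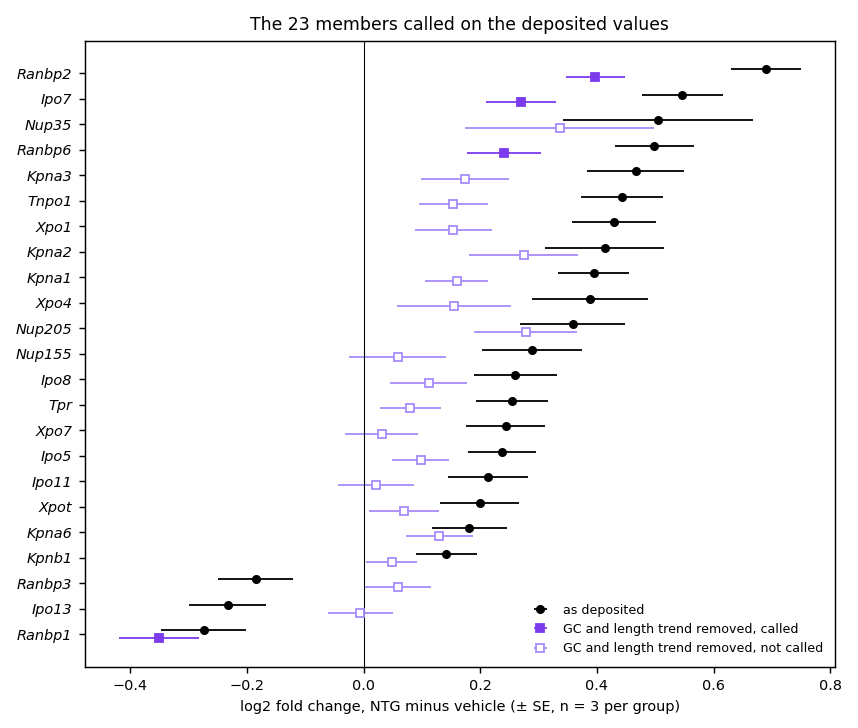
Log2 fold changes (± SE, n = 3 per group) of the 23 called members on the deposited values (circles) and after removal of each library's trend over GC content and length (squares; filled where called). The rises shrink towards 0, Ipo13 and Ranbp3 move to about 0, and Ranbp1 moves further below it.

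The sequences just upstream of Ranbp2, Ipo7, Ranbp6 and Ranbp1 are shown because these 4 genes are the members called with and without the GC and length trend. Each is the 250 bases before the RefSeq start on GRCm38.p6, 5′ to 3′ on the gene's strand. Capitals mark matches on either strand to the E box (CACGTG), the NRF1 core (GCATGCGC), the ETS core (CCGGAAGT) and the CCAAT box (CCAAT).
Ranbp2, chr10:58446602-58446851, plus strand: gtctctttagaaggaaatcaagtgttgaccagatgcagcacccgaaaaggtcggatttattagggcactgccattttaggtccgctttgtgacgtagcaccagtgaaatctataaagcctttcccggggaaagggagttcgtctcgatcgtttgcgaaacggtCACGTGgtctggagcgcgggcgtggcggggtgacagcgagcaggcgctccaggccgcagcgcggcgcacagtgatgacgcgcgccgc
Ipo7, chr7:110018065-110018314, plus strand: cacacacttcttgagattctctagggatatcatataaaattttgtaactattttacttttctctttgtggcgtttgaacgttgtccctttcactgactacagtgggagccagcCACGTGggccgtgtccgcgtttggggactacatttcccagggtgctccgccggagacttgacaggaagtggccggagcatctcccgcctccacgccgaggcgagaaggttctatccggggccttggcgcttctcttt
Ranbp6, chr19:29812975-29813224, minus strand: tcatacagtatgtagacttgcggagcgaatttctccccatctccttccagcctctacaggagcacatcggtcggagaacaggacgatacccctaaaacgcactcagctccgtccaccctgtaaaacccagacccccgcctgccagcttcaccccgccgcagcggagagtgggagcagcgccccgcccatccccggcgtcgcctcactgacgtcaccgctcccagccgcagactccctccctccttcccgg
Ranbp1, chr16:18248695-18248944, minus strand: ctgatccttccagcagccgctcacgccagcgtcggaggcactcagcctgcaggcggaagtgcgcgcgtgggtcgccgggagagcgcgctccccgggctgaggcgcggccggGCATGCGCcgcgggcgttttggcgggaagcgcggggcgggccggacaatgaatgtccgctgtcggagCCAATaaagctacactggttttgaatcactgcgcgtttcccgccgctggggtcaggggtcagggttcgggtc

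The Ranbp2 and Ipo7 windows each held 1 E box, the Ranbp1 window held 1 NRF1 core and 1 CCAAT box, and the Ranbp6 window held none of the 4 motifs. RefSeq promoters were matched for 40 of the 51 members (47 promoters). The E box was in 14.9% of member promoters and 7.83% of 15358 promoters of protein-coding genes, and the NRF1 core in 10.6% and 3.79%. For the ETS core the shares were 8.51% and 4.98%, and for the CCAAT box 44.7% and 34.8%. Among the 14 members that rose and had a promoter, 3 held the E box (Ranbp2, Ipo7 and Xpot), 0 the NRF1 core, 1 the ETS core and 7 the CCAAT box. A match describes letters in the window and not a bound site.

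Among the nucleoporins, 5 of 22 rose and 0 fell, with a median log2 fold change of 0.10, where 12.3% and 13.5% of all genes did. Ranbp2, on chromosome 10 (58446852 to 58494155, plus strand, GRCm38), encodes the giant nucleoporin of the cytoplasmic filaments, which binds Ran and the SUMO-modified form of its GTPase-activating protein. It had 3315, 3147 and 3064 normalised reads in NTG, against 1967, 1889 and 2051 in vehicle. The groups were well apart, and the log2 fold change was 0.69 ± 0.06 (SE), a 1.61-fold higher level in NTG. After removal of the GC and length trend it was 0.40 ± 0.05, between 0.37 and 0.41 with each library left out in turn. Its filament partners were not called: Nup214, a docking site for export complexes, averaged 1110.4 ± 58.8 in NTG and 1156 ± 84.3 in vehicle (SD, n = 3 each), and Nup88, which anchors it, averaged 1126 ± 53.9 and 1112 ± 106. For both genes the NTG and vehicle libraries overlapped.

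In the inner ring, 3 of 5 members rose and 0 fell, where 12.3% and 13.5% of all genes did. Nup205, a large scaffold subunit, had 658, 646 and 634 normalised reads in NTG, against 542, 451 and 523 in vehicle (log2 fold change 0.36 ± 0.09), and all NTG libraries were higher. Nup155, a membrane-proximal scaffold protein, rose by a log2 fold change of 0.29 ± 0.09. Nup35, which binds the pore membrane, averaged 176 ± 11.4 in NTG and 125 ± 22.7 in vehicle (0.50 ± 0.16). The Nup35 call was lost without NTG replicate 1 or 2 and without vehicle replicate 1 or 2, and the Nup155 call without NTG replicate 1 or 2 and without vehicle replicate 2. None of these 3 genes was called after the GC and length trend was removed. Nup205 was then at 0.28 ± 0.09, Nup35 at 0.34 ± 0.16 and Nup155 at 0.06 ± 0.08. A transcript of another gene, Gm4353, is 99.6% identical to Nup35 over 1547 nt, so its reads may be split or shared. Nup188, the close relative of Nup205, stood at 418, 419 and 414 in NTG, against 472, 491 and 507 in vehicle; the groups did not overlap, but it was not called (log2 fold change -0.23 ± 0.09). Nup93, the linker that joins these scaffold proteins, was at 3086 ± 132 in NTG and 3231 ± 128 in vehicle and was not called.

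None of the 6 Y complex members covered by the symbol rule was called. The Y complex forms the outer rings. Outside the rule, its subunit Seh1l rose (log2 fold change 0.45) and its subunit Sec13 was not called (-0.03). After the GC and length trend was removed Seh1l was at 0.22 and was not called. The log2 fold changes of the 6 members ran from 0.02 in Nup43 to 0.30 in Nup37. Nup37 had only 59.6 ± 1.97 normalised reads in NTG and 48.3 ± 5.42 in vehicle, with no overlap between groups. Nup160 averaged 367 ± 43.8 and 319 ± 29.6 and Nup85 averaged 491 ± 20.04 and 483 ± 48.5, both with overlapping libraries. Pcmt1, on the strand opposite Nup43, had 62.8 times its normalised reads, and whether counting used the strand is not given in the sources used here.

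Of the central channel, the 3 FG nucleoporins covered by the symbol rule were not called, while Nupl1, an older symbol of the channel nucleoporin Nup58 that the rule does not cover, rose (log2 fold change 0.30). With the GC and length trend removed Nupl1 was at 0.10 and was not called. Nup62, a core FG protein of the channel, averaged 797 ± 43.3 in NTG and 831 ± 41.6 in vehicle, its partner Nup54 410.5 ± 26.6 and 347 ± 69.9, and Nup98, which also has roles in messenger RNA export, 1052 ± 40.4 and 990.3 ± 57.0. In the nuclear basket, Tpr, the coiled-coil protein that builds its fibres, rose: 3012, 2927 and 2845 normalised reads in NTG, against 2365, 2651 and 2354 in vehicle (log2 fold change 0.25 ± 0.06). After the GC and length trend was removed Tpr was at 0.08 ± 0.05 and was not called. Odr4 overlaps Tpr by 279 bp on the opposite strand, had 0.41 times its normalised reads and rose (log2 fold change 0.40). Nup153, which tethers the basket, and Nup50, a cofactor of import, had log2 fold changes of 0.12 ± 0.07 and 0.10 ± 0.07 and were not called. Of the membrane ring, Nup210 was at 141 ± 7.76 and 148 ± 15.2, and its relative Nup210l was near the lower end of the table, with 28.3, 21.3 and 29.5 normalised reads in NTG and 10.9, 14.4 and 22.03 in vehicle.

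**Figure D4:**
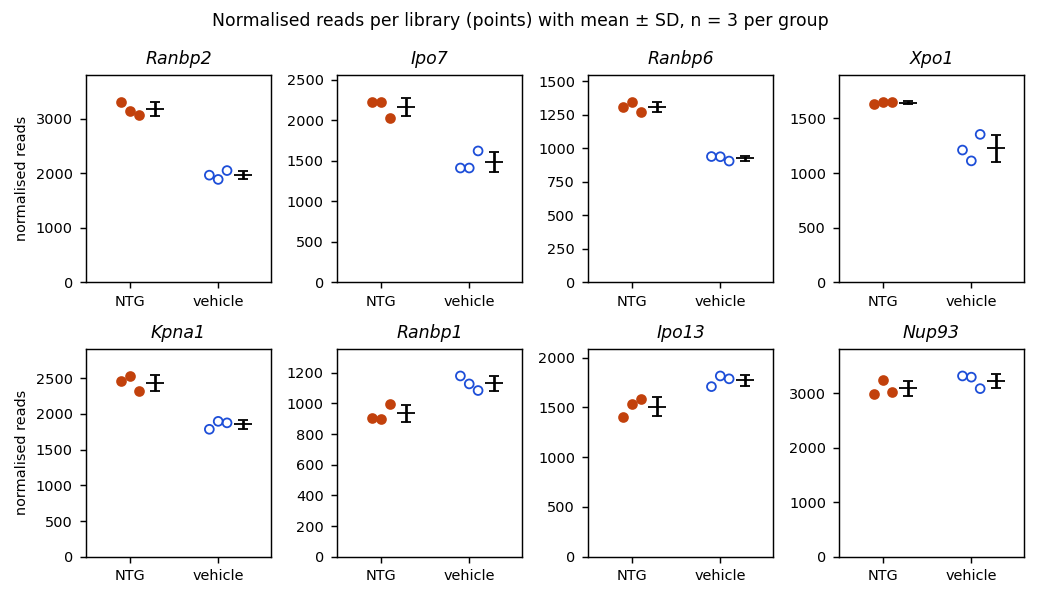
Normalised reads in each library for 8 members (filled, NTG; open, vehicle), with the mean ± SD beside the points (n = 3 per group) and axes that start at 0. NTG libraries lie above vehicle libraries for Ranbp2, Ipo7, Ranbp6, Xpo1 and Kpna1, below them for Ranbp1 and Ipo13, and overlap them for Nup93.

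Of 24 importins and exportins, 15 rose and 1 fell, with a median log2 fold change of 0.22, where 12.3% and 13.5% of all genes did. Their median GC content was 46.0%, and after the GC and length trend was removed 2 rose and 0 fell, with a median of 0.10. The difference between these receptors and the nucleoporins was not tested. Of the 5 importin alpha adaptors, which recognise classical nuclear localisation signals, 4 rose and 0 fell. Kpna1 had 2458, 2529 and 2312 normalised reads in NTG, against 1783, 1894 and 1873 in vehicle (log2 fold change 0.39 ± 0.06). Kpna3 had 1073, 1086 and 992, against 854, 737 and 695 (0.47 ± 0.08), and Kpna2 had 608, 618 and 553, against 513, 388 and 441 (0.41 ± 0.10). In each of these the lowest NTG library was above the highest vehicle library. Kpna6 rose by 0.18 ± 0.06, a call lost without NTG replicate 1 or 2 and without vehicle replicate 1 or 2. Kpna4 was not called: it had 1349, 1365 and 1291 in NTG and 1171, 1109.6 and 1303 in vehicle (0.16 ± 0.07).

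Kpna4 was the adaptor whose value changed sign once the GC and length trend was removed. GC content and length were removed together, so their parts cannot be told apart. The longest Kpna4 transcript has 8819 nt and that of Kpna3 4069 nt, with 3′ untranslated regions of 6943 and 2423 nt. Over these transcripts Kpna4 has 40.05% GC, near that of Kpna3 (39.6%), and over the coding parts 46.5% and 42.6%. Whether shorter isoforms were present was not tested. After the GC and length trend was removed Kpna4 stood at -0.14 ± 0.06, against 0.17 ± 0.08 for Kpna3. Neither was called in that fit, and the difference between them was not tested. Summed per kilobase of transcript, the 5 adaptors reached 1574, 1611 and 1482 normalised reads in NTG and 1261, 1193 and 1262 in vehicle. Kpna1 made up 31.0% ± 0.103 of that sum in NTG and 29.7% ± 1.73 in vehicle, and Kpna4 9.73% ± 0.134 and 10.9% ± 0.678 (SD, n = 3 each). Kpna2 has a near-identical copy, Gm10184, whose transcript matches it at 99.9% over 1968 nt, and several processed pseudogenes, so its count is uncertain.

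Importin beta and the other importins held 7 rises and 1 fall among 12, where 12.3% of all genes rose and 13.5% fell. Ipo7, on chromosome 7 (110018315 to 110056609), carries ribosomal proteins and the linker histone. It had 2229, 2224 and 2029.6 normalised reads in NTG, against 1411, 1411 and 1622 in vehicle (log2 fold change 0.55 ± 0.07), and it stayed called with each library left out, with and without the GC and length trend. Ranbp6, on chromosome 19 (29808108 to 29812974), is a relative of Ipo5 annotated as a single exon. It had 1311, 1347 and 1270.2, against 938, 937 and 904 (0.50 ± 0.07). After the trend was removed Ranbp6 stood at 0.24 ± 0.06, and was then not called without NTG replicate 2 or without NTG replicate 3.

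Tnpo1, the transportin that imports splicing proteins such as hnRNPs, averaged 1836 ± 119 in NTG and 1351 ± 88.8 in vehicle (log2 fold change 0.44 ± 0.07). Its paralog Tnpo2 had 4384, 4748 and 4779.8 in NTG against 4768, 5336 and 5051 in vehicle, and was not called (-0.12 ± 0.06). The GC contents of Tnpo1 and Tnpo2 were 40.4% and 53.5%, and after the trend was removed the values were 0.15 ± 0.06 and -0.03 ± 0.04. Tnpo3, which imports SR splicing factors, was not called (0.16 ± 0.07). Kpnb1, importin beta itself and the common partner of the alpha adaptors, had 4715, 4855 and 4660.1 in NTG against 4395, 4193 and 4308 in vehicle. The groups did not overlap and it rose by 0.14 ± 0.05, a call that was lost in 5 of the 6 fits with 1 library left out, all but that without vehicle replicate 1.

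Ipo5, which imports ribosomal proteins, Ipo8 and Ipo11 rose by log2 fold changes of 0.24, 0.26 and 0.21. The Ipo8 call was lost without NTG replicate 2, and the Ipo11 call without NTG replicate 1 or 2 and without vehicle replicate 2. Ipo11 overlaps the noncoding gene Ipo11-lrrc70 by 41864 bp on the same strand, so its reads may be split or shared. Ipo11-lrrc70 had 0.33 times its normalised reads and was not called (log2 fold change 0.02). Ipo9, a histone carrier, was not called (0.11 ± 0.06). Ipo13, an importin that also carries a translation factor out of the nucleus, was the importin that fell. It had 1406, 1533 and 1585 normalised reads in NTG, against 1709, 1816 and 1787 in vehicle (log2 fold change -0.23 ± 0.07). Its transcript was among the most GC-rich of the members (57.5%), and after the trend was removed its value was -0.0055 ± 0.055. Ipo13 was also not called without NTG replicate 1 or without vehicle replicate 2. Ipo4, another histone carrier, averaged 2009 ± 149 and 2242 ± 115 and was not called.

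Of 7 exportins, 4 rose and 0 fell, where 12.3% and 13.5% of all genes did. Xpo1, the main exporter of proteins with leucine-rich export signals, had 1632, 1653 and 1649.9 normalised reads in NTG, against 1211, 1112 and 1354 in vehicle (log2 fold change 0.43 ± 0.07). The NTG libraries lay within a narrow band above all vehicle libraries. Xpo4 averaged 589.8 ± 27.9 and 453 ± 59.5 (0.39 ± 0.10), and Xpo7 and the transfer RNA exporter Xpot rose by 0.24 and 0.20. The Xpo7 call was lost without NTG replicate 2, and the Xpot call without NTG replicate 1 or 2 and without vehicle replicate 1 or 3. None of these 4 exportins was called after the GC and length trend was removed, Xpo1 at 0.15 ± 0.07. Xpo5, the exporter of precursor microRNAs, averaged 1223 ± 46.0 in NTG and 1136 ± 139 in vehicle and was not called. Xpo6, which exports actin bound to profilin, had 1628, 1716 and 1747 against 1749, 2019 and 1782; its NTG libraries were all lower, by a narrow margin, and it was not called (-0.12 ± 0.07).

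Of the 5 Ran-binding proteins outside the pore, 2 fell and 0 rose, where 13.5% and 12.3% of all genes did. Ranbp1, on chromosome 16 (18239979 to 18248694, minus strand), encodes a cytoplasmic protein that helps release Ran from transport complexes. It had 906, 900.1 and 999 normalised reads in NTG, against 1179, 1127 and 1084 in vehicle (log2 fold change -0.27 ± 0.07). All NTG libraries were lower. Its longest transcript has 48.3% GC over 1085 nt, where the median length of the members is 5001 nt. Among all protein-coding genes from 45% to under 50% GC, 3.21% fell. With the trend removed Ranbp1 was at -0.35 ± 0.07, between -0.41 and -0.31 with each library left out. The separate parts of GC content and length in its lower level were not tested. On the deposited values Ranbp1 was not called without NTG replicate 2.

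Ranbp3, a cofactor of Xpo1, had 1352, 1414 and 1447 in NTG against 1539.7, 1644 and 1607 in vehicle (-0.185 ± 0.06). It was at 0.06 ± 0.06 after the trend was removed, and the call was lost in 4 of the 6 fits with 1 library left out, which were those without NTG replicate 1 or 2 and without vehicle replicate 2 or 3. Ranbp9 and Ranbp10, scaffold proteins of a ubiquitin ligase rather than transport factors, were not called (-0.18 ± 0.08 and -0.06 ± 0.08). Ranbp3l, a relative of Ranbp3, was low and variable, with 74.4, 42.7 and 46.8 normalised reads in NTG and 67.6, 26.8 and 29.7 in vehicle.

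Levels differed widely between members when set per kilobase of transcript. Nup93 was highest, with a mean of 1079 normalised reads per kilobase over the 6 libraries (SD 48.1), followed by Tnpo2 (992), Ranbp1 (952), Kpnb1 (767) and Ipo5 (603). The ranges of Nup93, Tnpo2 and Ranbp1 over the 6 libraries overlapped. Nup93 was 12.0 times the level of Nup205, 13.6 times that of Nup188 and 14.8 times that of Nup155, its partners in the inner ring. At the other end stood Nup210l (3.69), Ranbp3l (14.1) and Nup210 (20.6). These levels assume the longest annotated transcript, and a shorter dominant isoform would raise them.

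**Figure D5:**
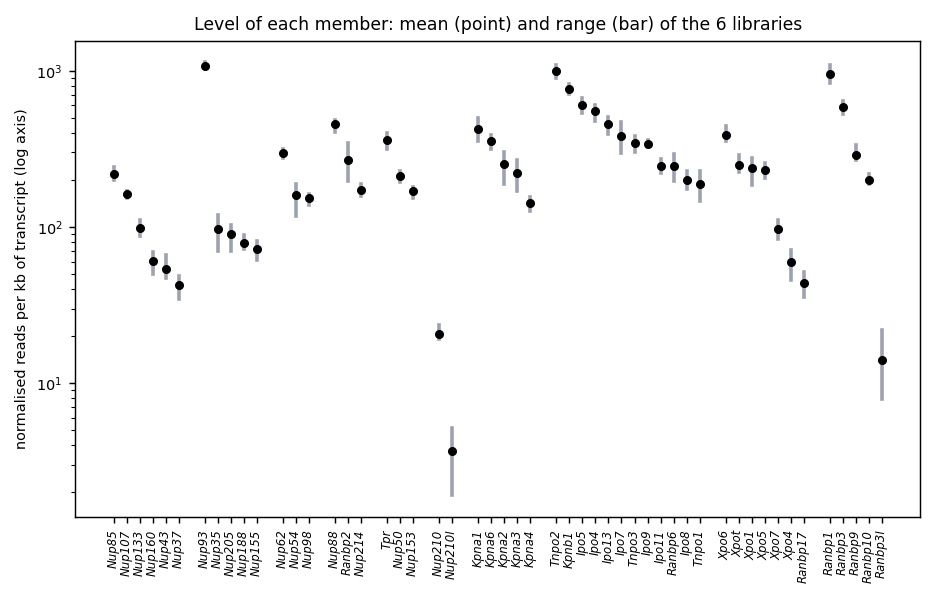
Level of each member in normalised reads per kilobase of transcript (log axis), with the mean of the 6 libraries as a point and their range as a bar, grouped by role. Nup93 stands at 1079 and Nup210l at 3.69, with the other 49 members between.

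Other genes of the pathway were counted in 4 lists that the symbol rule does not cover, 34 genes in all, of which 7 rose and 3 fell, where 12.3% and 13.5% of all genes did. The lists were chosen with earlier results of these data known, and genes given with a p-value had the smallest p in their list. Adjusted p-values in this and the next paragraph are therefore a description and not independent support. Of 8 further nucleoporins 3 rose and 1 fell. Seh1l, a Y complex member, had 685, 751 and 684 normalised reads in NTG, against 503, 540.4 and 508 in vehicle (log2 fold change 0.45, limma adjusted p = 0.000559). Ahctf1, which seeds new pores on chromatin, averaged 822 ± 21.4 and 624 ± 12.8 (0.40, limma adjusted p = 0.000767). Ndc1 rose and Pom121 fell, both transmembrane nucleoporins (0.30 and -0.40). Ndc1 was not called without NTG replicate 2 or vehicle replicate 3. Nupl1, the channel nucleoporin outside the 4 lists that was added after its value was seen, rose (log2 fold change 0.30) and stayed called with each library left out. After the GC and length trend was removed Nupl1 was at 0.10 ± 0.07 and was not called.

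Of 5 genes of the Ran cycle 0 rose and 1 fell, where 12.3% and 13.5% of all genes did. Rangap1, the GTPase activator of Ran, had 5072, 5164 and 5404 in NTG, against 5961, 6031 and 5867 in vehicle (log2 fold change -0.19, limma adjusted p = 0.00809), and Rcc1, the exchange factor that loads Ran in the nucleus, was not called (-0.26, limma adjusted p = 0.186). Of 4 other receptors and adaptors 2 rose: Cse1l, the exportin that returns importin alpha to the cytoplasm, averaged 1075 ± 41.9 in NTG and 821 ± 64.9 in vehicle (0.39, limma adjusted p = 0.000816), and Nmd3, an adaptor for ribosomal subunit export, averaged 386 ± 21.9 and 308 ± 36.2 (0.33, limma adjusted p = 0.0366). The calls of Nmd3 and of Thoc2, named next, were lost without NTG replicate 1 or 2 and without vehicle replicate 2. Of 17 genes of messenger RNA export 2 rose and 1 fell, near the 12.3% of all genes that rose and under the 13.5% that fell. Those that rose were Thoc1 (0.42, limma adjusted p = 0.00159) and Thoc2. Alyref, the adaptor that couples splicing to export, fell, with 543, 450.1 and 491 in NTG against 721, 652 and 719 in vehicle (-0.50, limma adjusted p = 0.000448). After the GC and length trend was removed, 0 of the 34 rose and 1 fell, where 4.13% and 5.22% of all genes did. The gene that fell was Alyref (-0.61, limma adjusted p = 6.62e-05). Its longest transcript, used for the removal, has 47.0% GC over 3527 nt. Of these, 2735 nt are 3′ untranslated region, and its coding part has 60.5% GC. Whether a shorter isoform was present was not tested.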

How the data were processed

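Polyadenylated RNA from 6 trigeminal ganglion libraries was sequenced in paired ends from strand-specific libraries, per the labels' protocols. FastQC and HISAT2, with the genome build GRCm38, are named in the submitters' processing notes. Not given in the sources used here are the counting tool, its strand setting and the normalization tool. The authors deposited 1 signal value per gene and library, in which whole reads could be recovered: all values (100% within a tolerance of 0.01) were whole multiples of the value of 1 read, as for a gene count divided by a size factor. At these depths 3 reads are 0.126 to 0.159 CPM, a floor for counting error alone.

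The main test was limma-trend with robust moderation on log2(value + 1), two-sided, with Benjamini-Hochberg adjustment. A gene needed a value of 1 or more in 3 or more libraries. Fold changes are on this scale, which understates those of low genes. Quasi-likelihood (edgeR), DESeq2 and limma-voom fits on recovered reads were alternatives; edgeR called 4544 genes in all and 20 members higher and 3 lower. Transcript GC content and length came from the longest GENCODE vM21 transcript, found for 16320 genes (93.1%) and all 51 members. Trends over them were removed per library with smooth terms. Near-identical copies were searched with BLAST at 95% identity over at least 200 nt.

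The members and lists were chosen with earlier results of these data known. In each role, values are given for the 2 highest and 2 lowest fold changes and the highest level per length, and in the other lists for the 2 smallest p-values. Kpnb1, Tnpo1, Tnpo3, Nup155, Ranbp9, Ipo5, Ipo8, Ipo9, Ipo11, Xpo7, Xpot, Ndc1, Pom121, Sec13, Thoc2 and Nupl1 were named after their values were seen. No 2 libraries of a group agreed within sampling noise (a chi-square test gave 3.99 to 7.76 per degree of freedom). Nothing says that libraries came from separate animals, and the spread behind each p-value may therefore be technical. The scripts were tested on simulated data. Versions were matplotlib 3.10.9, numpy 2.4.6, pandas 2.3.3 and Python 3.11.15, and, for the fits, mgcv 1.9.3, DESeq2 1.42.0, edgeR 4.0.16, limma 3.58.1 and R 4.3.3.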

Additional observations from a re-analysis of the deposited data

How the results depend on the processing

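Other pseudocounts, filters and scalings and the edgeR, DESeq2 and limma-voom fits called 19 or 20 members higher and 3 lower in NTG, with the median of all genes between -0.0052 and 0.0078. After removal of the GC content and length trend 3 members were called higher and 1 lower, with a median log2 fold change of 0.060, and 0 of the other pathway genes were higher and 1 lower. With the replicate block added to that removal the counts were 6 and 1 for members, with a median of 0.060, and 0 and 1 for the other genes. Against a minimum fold of 1.2, chosen after seeing the data, 2 members were higher and 0 lower, and 0 and 0 of the other genes. With each library left out in turn, members called higher ranged from 12 to 21 and lower from 1 to 5, their median from 0.12 to 0.19, and other genes called higher from 4 to 8 and lower from 3 to 3. The fit without vehicle replicate 1 added Nup54, Ranbp3l, Tnpo3 and Xpo5 as higher and Ipo4 and Ranbp9 as lower, and that without vehicle replicate 3 added Kpna4 as higher. Libraries left out after the trend removal, also chosen after seeing the data, gave 2 to 7 members higher and 1 to 2 lower.

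Same-numbered libraries did not pair (correlations of their deviations 0.0041, -0.033 and -0.025). The replicate block alone called 20 members higher and 5 lower, adding Ipo4 and Tnpo2. After removal of the trend, with and without the replicate block, the sign changed for Ranbp3 (0.059) and Nmd3 (-0.0073), which had been called, and for Ipo4 (0.029), Kpna4 (-0.14), Nup153 (-0.028), Nup210 (0.074), Nup214 (0.047), Nup43 (-0.12), Nup62 (0.17), Nup88 (-0.086) and Nup98 (-0.016), which had not. Removal of the trend also changed the sign of Nup107 (-0.028), not called before, of Thoc2 (-0.015), called before, and of some other pathway genes not called before. With single libraries left out, the sign changed for members that were not called: Nup210 ranged from -0.12 to 0.015, Nup214 from -0.10 to 5.3e-05, Nup43 from -0.13 to 0.11, Nup85 from -0.032 to 0.11 and Nup88 from -0.060 to 0.069. The cause was not tested. Depth limits most the members with the fewest reads, Nup210l, Ranbp3l, Nup37 and Nup43.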
